A study of Mus musculus with 6 samples.

Results

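The fetal liver haematopoietic niche factors described here are 9 genes for secreted or membrane-bound proteins by which non-blood cells of the fetal liver act on blood stem and progenitor cells: Kitl, Cxcl12, Thpo, Epo, Angpt1, Csf1, Il7, Dlk1 and Ptn. They were found by gene symbol, and 8 of the 9 matched 21 of the 45101 probe sets. Epo, which encodes erythropoietin, had no matching row and was not analysed here. The samples were livers of wild type C57Bl6 embryos at E12.5, and each group's RNA was hybridised to 1 Affymetrix array of the type Mouse Genome 430 2.0. They comprised liver cells with no sort named (liver), cells sorted for the adhesion molecule ALCAM (ALCAM+), and 4 fractions of ALCAM+ cells: with podoplanin (PDPN+), without it (PDPN-), with integrin alpha 8 (ITGA8+) and without it (ITGA8-). Podoplanin is a surface glycoprotein of mesothelium, and the title of the series names integrin alpha 8 as a feature of a population of hepatic stellate cells, which are mesenchymal and store vitamin A. Nothing in the labels gives the number of embryos, and with 1 array per group no test was possible and each difference is one between 2 arrays.

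In mid-gestation the liver is the main site of blood formation, and blood stem and progenitor cells multiply there in contact with hepatoblasts, stellate and other perivascular cells, endothelium and macrophages. KIT ligand (Kitl, stem cell factor) keeps stem and progenitor cells alive through the receptor KIT, CXCL12 holds them in place through CXCR4, and thrombopoietin (Thpo), made largely by hepatocytes, acts on stem cells and megakaryocytes. Angiopoietin-1 signals through TEK, CSF1 through CSF1R on macrophages, and interleukin 7 through IL7R on lymphoid progenitors. DLK1 is a surface protein of hepatoblasts and pleiotrophin (Ptn) a heparin-binding growth factor with known effects on blood stem cells.

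Values are intensities on a linear scale. The 4 fraction arrays share a scale by their trimmed means, taken without the lowest and highest 2% of values, which were 996 to 997. Their median probe set intensities still differed, at 123 to 200. Liver and ALCAM+ were at trimmed means of 196 and 331 and at medians of 42 and 66. Levels were therefore compared within the liver and ALCAM+ pair and within the 4 fractions only. Differences were taken on the log2(intensity + 16) scale, which understates those of low genes. A gene entered a comparison when its higher array exceeded a floor of 109, the median over every probe set and array. This floor lies above the medians of liver and ALCAM+ and below those of the 4 fractions. It was thus stricter for that pair, and below the floor does not mean the same in both. ALCAM+ minus liver is given relative to the median over all genes, which was 0.90 on the log2 scale. The sorts were visible in their own genes: Pdpn was at an intensity of 7746 in PDPN+ and 117 in PDPN-, Itga8 at 4354 in ITGA8+ and 871 in ITGA8-, and Alcam at 13425 in ALCAM+ and 3207 in liver. Stellate marker genes summed to 48009 in ITGA8+ and 27177 in ITGA8-, and mesothelial marker genes to 56851 in PDPN+ and 1457 in PDPN-. The stellate sums were closer in the PDPN split, at 30481 in PDPN+ and 36836 in PDPN-. Mesothelial markers summed to 16330 in ITGA8+ and 43015 in ITGA8-, where Pdpn was at 4658 and 6176.

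Cxcl12 was the only 1 of the 7 niche factors measured in both splits that lay 2-fold toward the stellate side in both, that is higher in ITGA8+ than ITGA8- and in PDPN- than PDPN+. Among all genes 0.789% did so. The mesothelial side in both splits held 0 of the 7, against 2.5% of all genes. Kitl and Thpo had a different pattern, and all 5 of their probe sets put the fractions in the same order: PDPN-, then PDPN+, then ITGA8-, then ITGA8+. Of these probe sets 4 belong to Kitl. The last step is not distinguished for Thpo, at 174 and 160. In 1 probe set of Kitl both ITGA8 values, at 97 and 60, were below the floor. Angpt1 was highest in the ITGA8 fractions, and Csf1 and Dlk1 differed little between the 4 fractions.

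**Figure D1:**
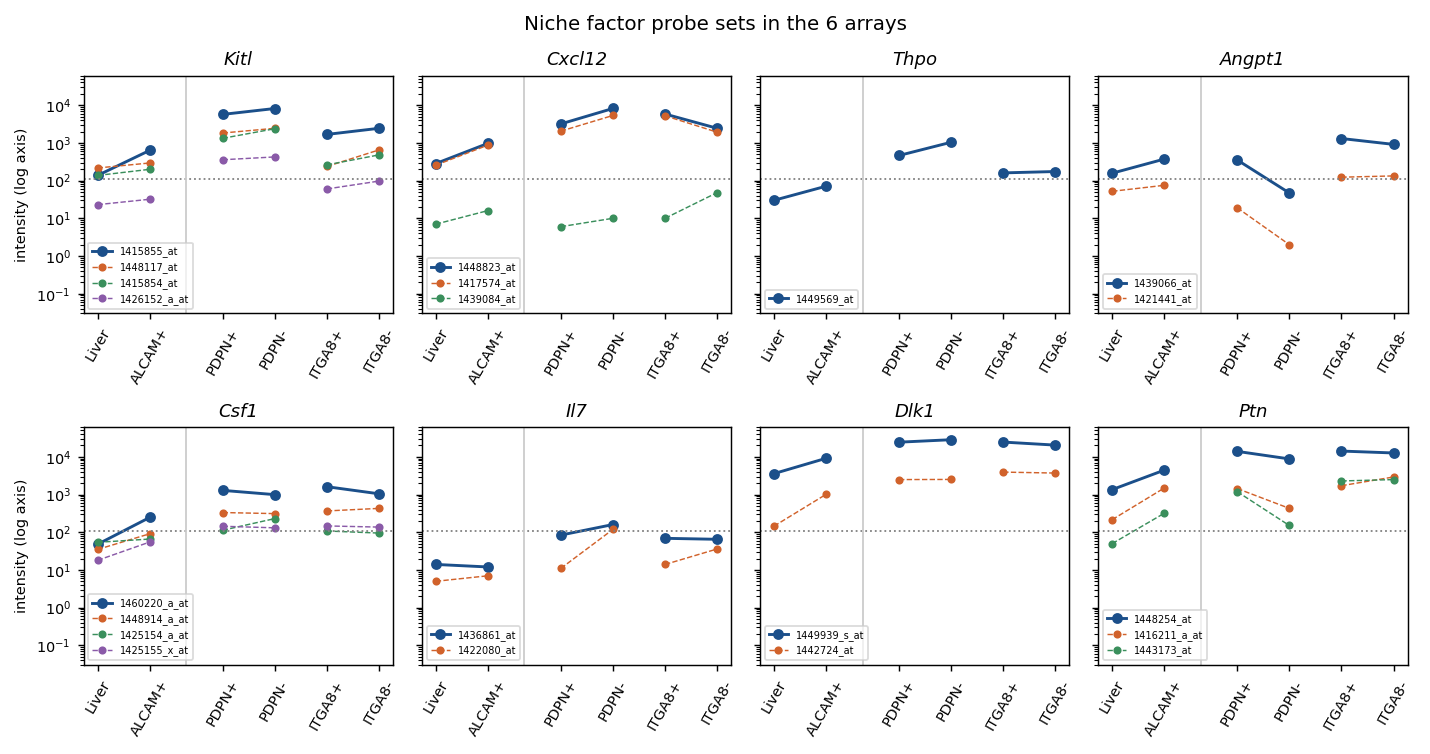
Intensity (log axis) of every probe set of the 8 measured niche factors in the 6 arrays, with 1 point per array and lines joining the arrays of a pair; the solid line is the probe set used for the gene, dashed lines are its other probe sets, and the dotted line is the floor of 109. Liver and ALCAM+, left of the grey line, are on another scale than the 4 fractions; Cxcl12 is high in PDPN- and ITGA8+, and Kitl and Thpo are high in both PDPN fractions.

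The promoter windows of Cxcl12, Kitl and Thpo are shown because these genes carry the 2 patterns, 1 with opposite directions in the splits and 1 with a common order of fractions. Each is the RefSeq window of assembly GRCm38.p6 from 250 bases before to 50 bases after an annotated start, read 5′ to 3′ on the gene's strand. Cxcl12 lies at chr6:117168285-117168584 on the plus strand, Kitl at chr10:100015571-100015870 on the plus strand, and the Thpo window at chr16:20730549-20730848 on the minus strand. Capitals mark every match on either strand to 4 motifs. The TATA box was searched with the letters TATAAA, the GC box with the letters GGGCGG, the CCAAT box by the letters of its name, and the core of a hypoxia response element with the letters ACGTG.

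Cxcl12: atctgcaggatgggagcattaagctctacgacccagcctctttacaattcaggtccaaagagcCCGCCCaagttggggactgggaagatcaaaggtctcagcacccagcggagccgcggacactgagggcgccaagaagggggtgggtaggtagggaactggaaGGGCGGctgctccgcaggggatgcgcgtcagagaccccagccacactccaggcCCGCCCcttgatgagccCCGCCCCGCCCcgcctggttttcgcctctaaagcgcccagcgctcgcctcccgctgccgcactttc

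Kitl: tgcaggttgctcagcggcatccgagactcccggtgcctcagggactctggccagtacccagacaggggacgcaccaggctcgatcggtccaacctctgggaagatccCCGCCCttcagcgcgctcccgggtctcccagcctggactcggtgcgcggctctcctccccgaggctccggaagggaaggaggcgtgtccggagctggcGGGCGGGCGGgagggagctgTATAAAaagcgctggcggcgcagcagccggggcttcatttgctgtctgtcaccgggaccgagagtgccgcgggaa

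Thpo: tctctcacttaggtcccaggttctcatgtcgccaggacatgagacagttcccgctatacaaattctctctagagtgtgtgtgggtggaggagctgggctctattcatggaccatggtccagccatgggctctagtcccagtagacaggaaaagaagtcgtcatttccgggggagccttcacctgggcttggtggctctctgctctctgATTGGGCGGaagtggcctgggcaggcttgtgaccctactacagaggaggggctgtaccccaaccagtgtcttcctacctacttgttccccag

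The Cxcl12 window held 5 GC boxes and none of the other letters, and its GC content was 64.7%. The Kitl window held 1 TATA box, which begins 25 bases before the start, and 3 GC boxes. The Thpo window shown held 1 GC box and 1 CCAAT box, which share bases, and a second RefSeq window of Thpo held no match. Neighbouring GC boxes also share bases in Cxcl12 and Kitl. Among 32851 windows of this length 35.7% held a GC box, 13.6% a TATA box, 37.4% a CCAAT box and 19.6% the hypoxia core. A match of letters is a description of the window and not a measured binding site.

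Cxcl12, the chemokine that retains CXCR4-bearing progenitors, had an intensity of 8182 in PDPN- and 3185 in PDPN+, and of 5827 in ITGA8+ and 2438 in ITGA8-. Both stellate-side fractions were thus above both others, though these 2 fractions differed in marker genes. Pdpn was at 117 in PDPN- and 4658 in ITGA8+, and mesothelial markers summed to 1457 and 16330. The Cxcl12 difference was -1.36 on the log2 scale in PDPN+ minus PDPN-, a 2.56-fold lower level. In ITGA8+ minus ITGA8- it was 1.25, a 2.38-fold higher level. A second probe set gave 5338 in PDPN- and 2048 in PDPN+, and 5237 in ITGA8+ against 1922 in ITGA8-, with log2 differences of -1.38 and 1.44. The last probe set of Cxcl12 stayed between 6 and 48 in all 6 arrays, below the floor, and had no value in any comparison. With a mean over all 3 probe sets the differences were -0.99 and 0.46, both under 2-fold. In liver and ALCAM+ the gene was at 283 and 970, which is 0.82 above the median shift and under 2-fold.

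Several lists of cell type marker genes also differed in the PDPN and ITGA8 splits. Among 10 stellate markers above the floor, 6 were 2-fold higher in ITGA8+ than ITGA8- and none lower, and between PDPN+ and PDPN- 2 were higher and 2 lower. Of 11 mesothelial markers, 11 were higher in PDPN+ and 10 lower in ITGA8+. Over all genes 5.36% were higher and 5.98% lower in ITGA8+, and 19.9% higher and 7.89% lower in PDPN+. The PDPN- array also had little signal of 3 of the 4 blood marker lists: 10 megakaryocyte genes summed to 329 against 32464 in PDPN+, 11 macrophage genes to 573 against 27863, and 8 neutrophil genes to 176 against 25134, although no marker was at 0 in any array. Erythroid markers were still present there, with 9 of 12 above the floor and a sum of 11345 against 16015 in PDPN+. In the ITGA8 split megakaryocyte markers went with Cxcl12, at 38717 in ITGA8+ and 16533 in ITGA8-. Hepatoblast markers summed to 221346 in PDPN- and 170403 in PDPN+, and to 140235 in ITGA8+ and 114773 in ITGA8-. These sums had the directions of Cxcl12. In the PDPN split 10 of 12 hepatoblast genes were within 2-fold, and in the ITGA8 split all 12. The part of these markers in the Cxcl12 difference was not tested. In such bulk samples fewer cells of a type and less RNA per cell cannot be told apart.

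Kitl, the ligand of KIT, was at 8159 in PDPN-, 5693 in PDPN+, then 2435 in ITGA8- and 1676 in ITGA8+. Its level thus spanned 4.83-fold over the fractions, and the step from PDPN+ to ITGA8-, between the sorts, was larger than the step within either sort. Within the sorts the log2 differences were -0.52 in PDPN+ minus PDPN- and -0.53 in ITGA8+ minus ITGA8-, both under 2-fold. All 4 probe sets of Kitl had this order. Their log2 differences ran from -0.84 to -0.24 in the PDPN split, and from -1.40 to -0.53 in the ITGA8 split over the 3 probe sets above the floor. 1 of these 3, at 237 in ITGA8+ and 650 in ITGA8-, was past 2-fold. The direction within each sort was thus shared by the probe sets, and its size was not.

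The first sort gave no single answer for Kitl. The probe set with the highest signal went from 137 in liver to 633 in ALCAM+, a difference of 1.18 beyond the median shift and 2.27-fold. A pair of other probe sets, at 216 and 293 and at 137 and 199, were at -0.49 and -0.41 relative to the same shift. The call of Kitl as higher in ALCAM+ cells thus rested on 1 of 3 probe sets above the floor, and with the mean over its probe sets the difference was 0.10.

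Thpo, the platelet growth factor made by hepatocytes, was measured by 1 probe set, at 1039 in PDPN-, 463 in PDPN+, then 174 in ITGA8- and 160 in ITGA8+. It was 2.20-fold lower in PDPN+ than PDPN-, a log2 difference of -1.14. Between ITGA8+ and ITGA8- the difference was -0.11, and the order of these neighbours is not distinguished by 1 array each. In liver and ALCAM+ it was at 30 and 71, below the floor. In the PDPN split 2 of 12 hepatoblast markers were 2-fold lower in PDPN+ and 0 higher. Over all genes 7.89% were lower and 19.9% higher. The part of hepatoblast markers in the Thpo difference was not tested.

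A comparison of the 2 sorts was added after the values were seen. Kitl and Thpo were the 2 of 8 niche factors for which the lower PDPN fraction was at least 2-fold above the higher ITGA8 fraction, which was so for 2.94% of all genes. The gap was 2.33-fold for Kitl and 2.52-fold for Thpo. Angpt1 was the 1 of 8 with both ITGA8 fractions at least 2-fold above both PDPN fractions, by 2.52-fold, against 5.29% of all genes. Hepatoblast markers, 12 genes such as Alb and Afp, summed to 170403 in PDPN+ and 221346 in PDPN- against 140235 in ITGA8+ and 114773 in ITGA8-. Erythroid markers, 12 genes such as Alas2 and Klf1, summed to 16015 and 11345 in PDPN+ and PDPN- and to 72314 and 55805 in ITGA8+ and ITGA8-. The part of either list in these gaps was not tested, and with 1 array per fraction a sort cannot be told apart from the handling of its cells.

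Angpt1, the TEK ligand known from perivascular cells and megakaryocytes, was at 1306 in ITGA8+, 913 in ITGA8-, 352 in PDPN+ and 47 in PDPN-, the last below the floor. PDPN+ was above PDPN- by 2.55 on the log2 scale. The size of this difference rests on a value below the floor. It ranged from 1.87 to 2.88 over the other settings that gave a value, and with the mean over both probe sets the gene was below the floor and the call was lost. ITGA8+ minus ITGA8- was at 0.51. Its second probe set, at 123 in ITGA8+, 133 in ITGA8-, 19 in PDPN+ and 2 in PDPN-, kept the ITGA8 fractions above the PDPN fractions and put ITGA8- first. The order of ITGA8+ and ITGA8- for Angpt1 thus depended on the probe set. Megakaryocyte markers summed to 38717 in ITGA8+, 16533 in ITGA8-, 32464 in PDPN+ and 329 in PDPN-. The 9 perivascular stromal genes summed to 20210 in ITGA8+, 18102 in ITGA8-, 12635 in PDPN+ and 6214 in PDPN-. The part of either list in the Angpt1 levels was not tested.

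Ptn, the heparin-binding growth factor, was higher in PDPN+ than PDPN- in all 3 probe sets, by amounts that differed. The probe set with the highest signal was at 13947 in PDPN+, 8801 in PDPN-, then 14213 in ITGA8+ and 12655 in ITGA8-, with a log2 difference of 0.66 in the PDPN split. Another probe set, at 1440 and 430 in PDPN+ and PDPN-, gave 1.71, and the last, at 1191 and 151, gave 2.85. PDPN- was the lowest fraction by every probe set. In the ITGA8 split the 3 probe sets were at 0.17, -0.76 and -0.12 and did not share a direction. In ALCAM+ minus liver they were at 0.80, 1.80 and 1.44 beyond the median shift, so Ptn was higher by every probe set and past 2-fold in 2 of 3. In liver and ALCAM+ these probe sets were at 1351 and 4437, 216 and 1491, and 50 and 319.

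Dlk1, a marker of hepatoblasts, ranked above at least 98.5% of probe sets in every array by its main probe set. This one was at 24470 in PDPN+, 28433 in PDPN-, then 24613 in ITGA8+ and 20455 in ITGA8-, a span of 1.39-fold. It is of a type that can match transcripts of several genes, and arrays can compress differences at high intensities. A second probe set at lower intensity, at 2493 in PDPN+, 2514 in PDPN-, then 3935 in ITGA8+ and 3711 in ITGA8-, spanned 1.57-fold and also stayed within 2-fold in both splits. From liver to ALCAM+ the main probe set went from 3587 to 9145, 0.45 beyond the shift. The second went from 145 to 1013, which is 1.78 beyond it, so the size of the Dlk1 difference depended on the probe set.

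Csf1, the macrophage growth factor, was at 1614 in ITGA8+, 1289 in PDPN+, 1046 in ITGA8- and 994 in PDPN-. These 4 values lay within 1.61-fold, and 3 further probe sets at 95 to 429 also gave no 2-fold difference within a sort. Between liver and ALCAM+ Csf1 went from 48 to 247, 1.14 beyond the shift and 2.20-fold, while its other probe sets were below the floor in both arrays. With a pseudocount of 64 this difference was 0.70, under 2-fold, and with the mean over all 4 probe sets Csf1 was below the floor there. Il7, the lymphoid growth factor, was above the floor in PDPN- only, at 160, with 84 in PDPN+, then 69 in ITGA8+ and 65 in ITGA8-. Its second probe set was likewise above the floor in PDPN- alone, at 119, with 11 in PDPN+, then 14 in ITGA8+ and 36 in ITGA8-. The PDPN+ minus PDPN- differences were -0.82 and -2.32, and with the mean over both probe sets the difference was -1.57, past 2-fold. In liver and ALCAM+ both Il7 probe sets were at 5 to 14.

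**Figure D2:**
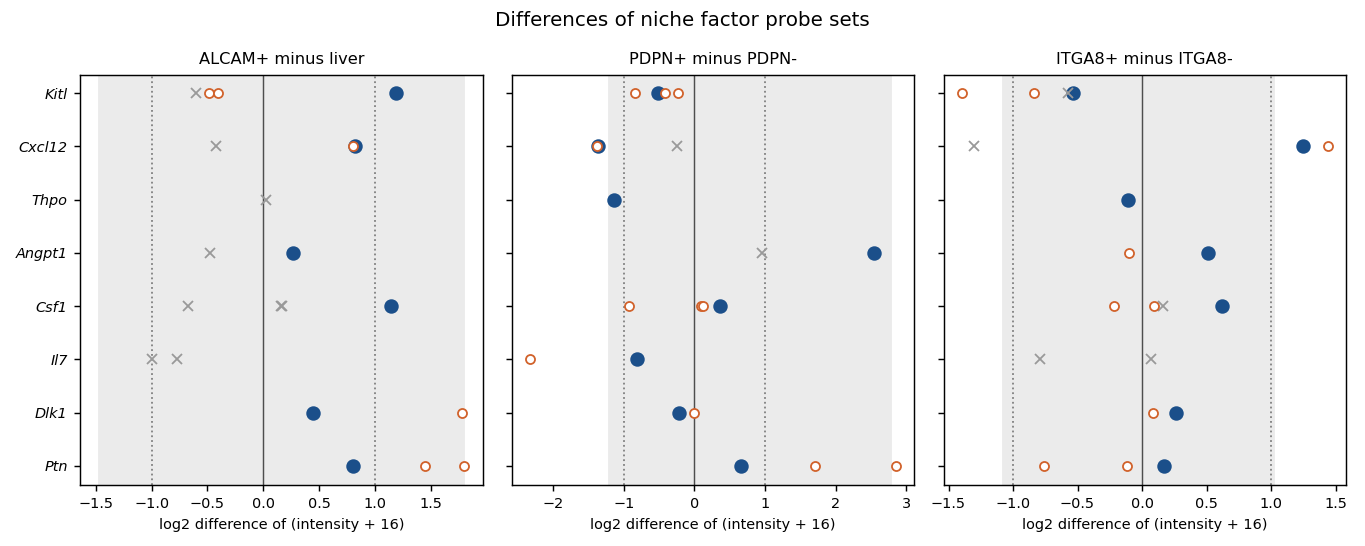
Log2 difference of (intensity + 16) of each niche factor probe set in the 3 comparisons, with ALCAM+ minus liver relative to the median of all genes; filled points are the probe set used for the gene, open points its other probe sets above the floor, crosses probe sets below the floor in both arrays, dotted lines mark 2-fold, and the grey band holds the central part of all genes between the 5th and 95th percentiles. Cxcl12 lies outside the band on opposite sides in the 2 splits, at -1.36 and 1.25, while the 3 probe sets of Kitl above the floor fall on both sides of 0 in ALCAM+ minus liver.

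The counts of niche factors past 2-fold were small, and the shares of all genes stand beside them. In ALCAM+ minus liver Kitl and Csf1, 2 of the 6 that entered, were higher and 0 lower, where 15.5% of all genes were higher and 11.3% lower. Of all calls there 57.9% were higher, and 94.5% without the median shift, where all 6 niche factors passed 2-fold. By the probe set used, the median of the 6 was 0.81 beyond the shift, and all 6 were above the shift. Thpo and Il7 were below the floor there, and 2 other probe sets of Kitl were at -0.49 and -0.41. With the mean over probe sets Csf1 had no value, Angpt1 was at 0.07 and Kitl at 0.10. Cxcl12 was then at 0.58, Dlk1 at 1.29 and Ptn at 1.53. In PDPN+ minus PDPN- 1 of 8, Angpt1, was 2-fold higher and 2, Cxcl12 and Thpo, were lower, where 19.9% of all genes were higher and 7.89% lower. Higher genes made up 71.6% of the calls, and 57.4% after quantile normalisation. The median of the 8 was -0.37 against 0.04 over all genes. In ITGA8+ minus ITGA8- 1 of 7, Cxcl12, was higher and 0 lower, where 5.36% of all genes were higher and 5.98% lower. Higher genes made up 47.3% of these calls, and 61.2% after quantile normalisation. The median of the 7 was 0.27 against 0.00 over all genes.

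**Figure D3:**
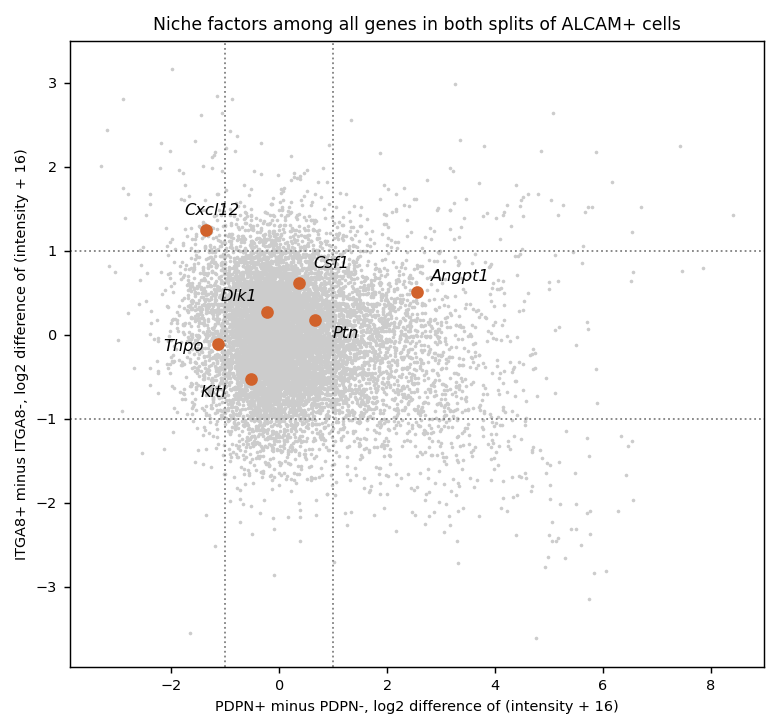
Log2 difference of (intensity + 16) in PDPN+ minus PDPN- (x axis) and ITGA8+ minus ITGA8- (y axis) for the 12799 genes above the floor in both splits (grey) and the 7 niche factors among them (orange); dotted lines mark 2-fold. Cxcl12 is the orange point in the upper left corner, Angpt1 lies to the right at 2.55, and the other 5 are within 2-fold on the y axis.

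The receptors of the niche factors were also read in the fractions, to see where their RNA was. Of 13 receptor genes 10 were above the floor in the PDPN split, and 9 of these were 2-fold higher in PDPN+ and 0 in PDPN-. In PDPN- alone 4 of the 13 were above the floor, so several of the 9 entered through their PDPN+ value only. Over all genes 19.9% were higher in PDPN+ and 7.89% lower. Csf1r, the CSF1 receptor of macrophages, was at 5357 in PDPN+ and 81 in PDPN-, which is 5.79 on the log2 scale. This fold rests on a PDPN- value below the floor, and its size depends on the pseudocount. Tek was at 1375 and 221, Cxcr4 at 456 and 115, Kit at 211 and 66, Il2rg, the shared chain of the interleukin 7 receptor, at 292 and 57, and Tie1, a partner of TEK, at 145 and 47. Ackr3, a scavenging receptor of CXCL12, was at 5328 and 1762, and Sdc3, a syndecan that binds pleiotrophin, at 538 and 202. Epor, the erythropoietin receptor, was at 121 and 70 and under 2-fold. The PDPN- values of Kit, Il2rg, Tie1 and Epor were below the floor as well. The blood markers given above moved with these receptors, as did endothelial markers, 10 genes that summed to 4393 in PDPN+ and 1405 in PDPN-, and their part was not tested.

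In the ITGA8 split 5.36% of all genes were 2-fold higher in ITGA8+ and 5.98% lower. Of 11 receptors above the floor 3 were 2-fold higher in ITGA8+ and 0 lower. Among them were Csf1r at 427 and 139 and Il2rg at 2503 and 1207, with log2 differences of 1.52 and 1.04. Cxcr4, at 340 in ITGA8+ and 295 in ITGA8-, did not move with its ligand there. Kit, at 547 in ITGA8+, was at -0.84 on the log2 scale, and Epor was at 2830 and 2064, Tek at 1212 and 1171, Ackr3 at 6380 and 4416, Sdc3 at 347 and 558, and Tie1 at 234 and 197. Ptprz1, a phosphatase receptor of pleiotrophin, was at 97 and 146, above the floor in ITGA8- alone. Il7r and Alk, which encodes a receptor tyrosine kinase, were below the floor in all 6 arrays, at 12 to 27 and 17 to 84.

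Relative to the shift, 3 of 10 receptors were higher in ALCAM+ than liver and 1 lower, where 15.5% of all genes were higher and 11.3% lower. Ackr3 went from 131 to 1084, a difference of 2.00, and Csf1r from 516 to 2823, or 1.52. Epor, at 822 in liver and 707 in ALCAM+, was the lower 1 at -1.11. Erythroid markers were lower in 10 of 11 in the same comparison, with summed intensities of 46656 in liver and 22088 in ALCAM+. Kit at -0.30, Cxcr4 at -0.63, Tie1 at -0.76, Il2rg at 0.47, Tek at 0.62 and Sdc3 at 0.69 were within 2-fold.

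**Figure D4:**
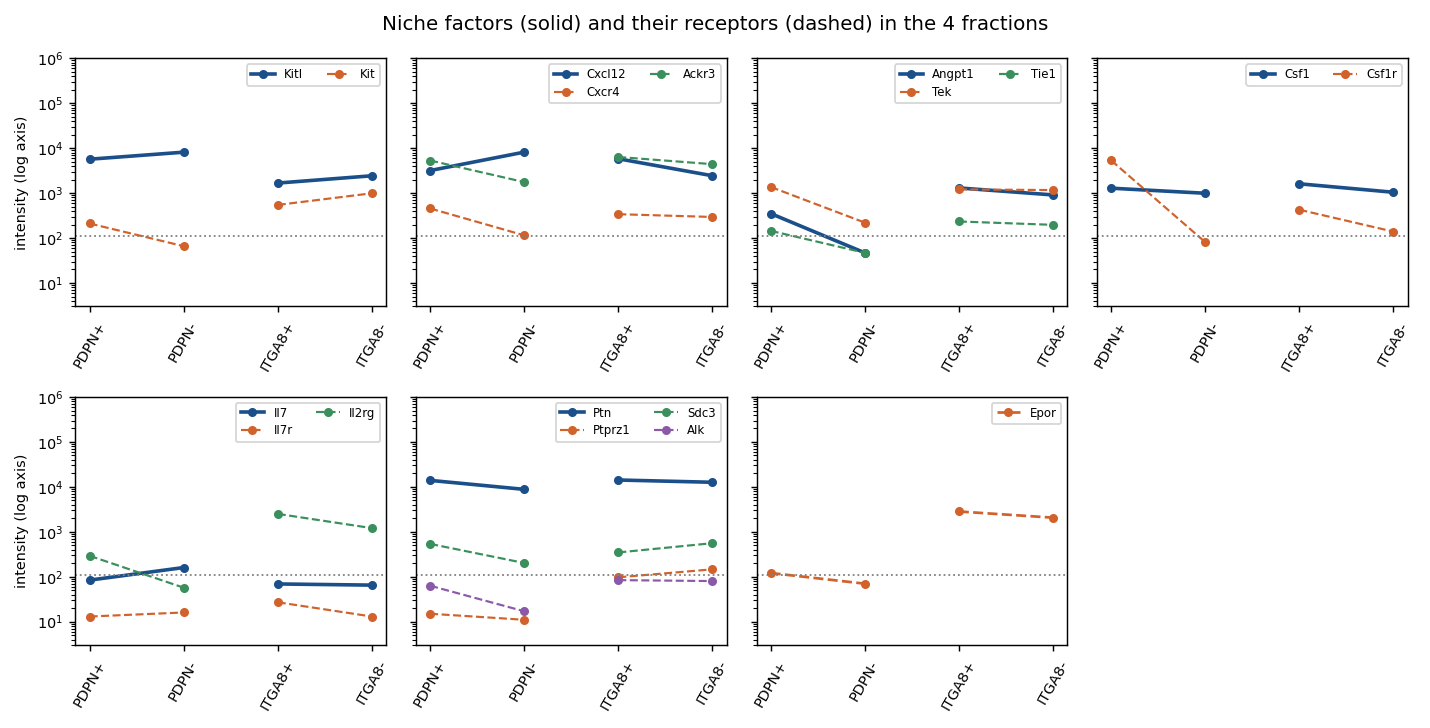
Intensity (log axis) of 6 niche factors (solid) and of their receptors (dashed) in the 4 fractions, 1 point per array, with lines joining the fractions of a sort and the floor of 109 dotted; Epor is shown alone because Epo was not analysed. Csf1r is at 5357 in PDPN+ and 81 in PDPN- while Csf1 stays within 1.61-fold, and Cxcr4 is nearly level between ITGA8+ at 340 and ITGA8- at 295, where Cxcl12 differs 2.38-fold.

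Other ligands of blood-forming niches were described from a list of 36 genes, of which 35 were measured. In the PDPN split 9 of 21 above the floor were 2-fold higher in PDPN+ and 3 lower, with a median of 0.61. The shares of all genes were 19.9% and 7.89%. Wnt5a, a secreted WNT ligand, was at 643 in PDPN+ and 32 in PDPN-, a log2 difference of 3.78. Angptl7, an angiopoietin-like protein, was at 1002 and 100, or 3.13. Both PDPN- values were below the floor, so the sizes of these differences depend on the pseudocount. Among the lower genes Angptl6 was at 461 and 1258, a difference of -1.42, and Icam1, an adhesion molecule for white cells, at 1157 and 2428, or -1.06. In the ITGA8 split 1 of 22 was higher and 4 lower, against 5.36% and 5.98% of all genes. Angptl6, at 1331 in ITGA8+ and 523 in ITGA8-, was the higher 1 at 1.32. Like Cxcl12 it was thus past 2-fold toward the stellate side in both splits. Spp1, which encodes osteopontin, was at 43 and 177, a difference of -1.71, with the ITGA8+ value below the floor. Clcf1, a cytokine of the interleukin 6 family, was at 371 and 1026, or -1.43.

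Relative to the shift 7 of 17 of these ligands were higher in ALCAM+ than liver and 0 lower, with a median of 0.90. The shares of all genes were 15.5% and 11.3%. Mdk, the pleiotrophin-related growth factor midkine, went from 359 to 3214, and Clcf1 from 14 to 219, with differences of 2.21 and 2.07. The liver value of Clcf1 was below the floor. Il3, Csf2, Csf3, Il6, Il11 and Il34, cytokines of blood progenitors and macrophages, were below the floor in all 6 arrays, with a highest value of 51 for Il6 in PDPN+. A low intensity of a probe set does not show that a transcript is absent.

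Perivascular stromal genes and genes of oxygen sensing, the system known to control Epo, were read beside the niche factors. Relative to the shift, ALCAM+ exceeded liver 2-fold for 5 of 6 stromal genes that entered, against 15.5% of all genes. Largest were the differences of Pdgfra, a receptor of mesenchymal cells, from 221 to 1991, and the transcription factor gene Foxc1, from 27 to 263. The liver value of Foxc1 was below the floor. In the PDPN split 3 of 6 were higher in PDPN+, against 19.9% of all genes. Cspg4 was at 232 and 16, the latter below the floor, and Mcam at 2189 and 308. Mcam was also the 1 of 8 lower in ITGA8+, at 554 and 2068, where 5.98% of all genes were lower. Lepr, the leptin receptor that marks niche stroma of adult bone marrow, was at most 125, in ITGA8-. Of 9 oxygen-sensing genes, 2 were higher and 1 lower in PDPN+, against 19.9% and 7.89% of all genes. Hif3a was at 2210 and 413 and the prolyl hydroxylase gene Egln3 at 890 and 188. Epas1, which encodes HIF-2 alpha, was at 1966 and 4015, a log2 difference of -1.02. In the ITGA8 split 0 of 9 passed 2-fold, with Epas1 at 0.91. In ALCAM+ minus liver 1 of 9, Egln3, was higher, at 1.38, against 15.5% of all genes.

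The genes with the most similar profiles were found by the distance between log2 profiles over the 6 arrays, centred within the liver and ALCAM+ pair and within the 4 fractions, among 14548 other genes. For Cxcl12 they were Anpep, Tmem158 and Acy3, at distances of 0.09, 0.21 and 0.23 where the median gene was at 1.93. Anpep, which encodes the membrane aminopeptidase CD13, was at 3423 in PDPN-, 1291 in PDPN+, then 2283 in ITGA8+ and 1003 in ITGA8-. For Kitl they were Camk2n1, Maff and 4931406C07Rik, at 0.30, 0.39 and 0.40. For Thpo they were Alpl, Cpm and F12, at 0.19 to 0.20, and F12, a coagulation factor made by hepatocytes, was at 5317 in PDPN-, 2310 in PDPN+, then 979 in ITGA8+ and 909 in ITGA8-. For Angpt1 they were Chst11, Adgrg3 and Cd93, at 0.31 to 0.37, and Cd93, a surface protein of endothelial and blood cells, was at 69 in PDPN- and 1866 in ITGA8+.

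By the probe set used, Ptn, Dlk1, Csf1 and Il7 spanned 1.39-fold to 2.17-fold over the 4 fractions. The widest was Il7, which was above the floor in PDPN- only. These genes had near neighbours as well, as profiles with small differences lie close to many others. For Ptn they were Smad6, Efnb1 and Vim at 0.10 to 0.12, and Vim, the mesenchymal intermediate filament gene, was at 18616 in PDPN+, 11008 in PDPN-, then 18928 in ITGA8+ and 17710 in ITGA8-. For Dlk1 they were Eva1b, Extl2 and Mapre2, for Csf1 Slc6a8, Smyd4 and Uri1, and for Il7 Nudt22, BC024137 and Ppp1r35. Further probe sets of Ptn spanned 6.58-fold and 15.0-fold over the 4 fractions, and that of Il7 5-fold. The neighbours thus hold for the probe set used. Among the niche factors themselves, by the same probe sets, Csf1 and Ptn were closest, at 0.46, followed by Csf1 and Dlk1 at 0.81. Angpt1 and Thpo were farthest apart, at 5.50. These distances describe 6 arrays and carry no test.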

How the data were processed

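The deposited table holds intensity values for 45101 probe sets in 6 samples, linear and in whole numbers. RMA and Partek were used, per the submitters' processing notes; the sources used here give neither their versions nor a genome build. RNA was extracted and 20 ng per sample amplified and biotin-labelled, per the labels' protocols. Left out were 64 control probe sets, 5746 without a gene and 1280 with several. The others named 20677 genes, with symbols taken by Entrez identifier from RefSeq (GRCm38.p6), which matched 92.1%. Where a gene had several probe sets, the 1 with the highest average intensity stood for it. Differences of log2(intensity + 16) were called at 2-fold where the higher array exceeded 109. Niche factors were all named with every probe set; of each further list, the 2 largest differences in each direction and every receptor, and 3 nearest profiles per member; other names were chosen after their values were seen. The members and lists were chosen with earlier results of these data known. Precision is limited by 1 array per group; the agreement of probe sets is the only repeat measure, and probe sets of a gene are not replicates. The labels' series type names sequencing, whereas the table holds array values. Python 3.11.15, pandas 2.3.3 and NumPy 2.4.6 were used. Results for some list genes are not reported here.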

Additional observations from a re-analysis of the deposited data

How the results depend on the processing

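With 1 array per group no sample could be left out. No paired analysis was possible because each group has 1 array. The differences of the niche factors were recomputed 142 times under 7 settings, and none past 2-fold changed sign. In 127 of these the direction and the side of 2-fold were kept. A further 5 had no value because the gene fell below the floor. With the mean over probe sets these included 2 called differences, Angpt1 in PDPN+ minus PDPN- and Csf1 in ALCAM+ minus liver, and both calls were lost. With the mean over all probe sets, which includes the Cxcl12 probe set below the floor, the count higher in ITGA8+ and the count toward the stellate side both went from 1 to 0, with Cxcl12 at 0.46 in ITGA8+ minus ITGA8- and at -0.99 in PDPN+ minus PDPN-. At 4-fold the counts higher in ALCAM+, lower in PDPN+, higher in ITGA8+ and toward the stellate side were all 0. The count higher in ALCAM+ than liver was 2 in the main setting, 1 with a pseudocount of 64, 4 with no floor and 6 without the median shift. For Kitl in ALCAM+ minus liver the difference ranged from 0.10 to 1.62 and for Ptn in PDPN+ minus PDPN- from 0.66 to 1.74. The counts that compare the PDPN sort with the ITGA8 sort were not recomputed under these settings. The other recomputed counts stayed within 1.5 times of the main ones, but with the mean over probe sets other genes made them up. Dlk1 at 1.29 and Ptn at 1.53 were then the 2 higher in ALCAM+, Ptn at 1.74 the 1 higher in PDPN+, and Thpo at -1.14 and Il7 at -1.57 the 2 lower in PDPN+. Il7 was also past 2-fold there with quantile normalisation, at -1.13.

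Over all genes, counts past 2-fold moved by more than 1.5 times under some settings, and the cause was not tested. In ALCAM+ minus liver 1699 genes were higher and 1237 lower. These counts were 3214 and 1290 with no floor, where 71.4% of calls were higher, 2512 and 1917 with quantile normalisation, 1132 and 787 with the mean over probe sets, and 4987 and 290 without the median shift. In PDPN+ minus PDPN- 2676 were higher and 1060 lower, with 3535 and 1687 with no floor and 1740 and 1294 with quantile normalisation. In ITGA8+ minus ITGA8- 744 were higher and 830 lower, with 1316 and 1113 with no floor and 452 and 631 with the mean over probe sets. At 4-fold they were 392 and 254, 1224 and 108, and 49 and 65, and 91.9% of the calls in the PDPN split were higher. Signals below the floor, as for Il7 outside PDPN-, limit what can be read from low genes.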
